A study of Drosophila melanogaster and Drosophila simulans with 11 samples.

Results

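The binding of MOF was set against the binding of MSL2 in salivary glands of *roX* mutant males, at the positions of the genome where both proteins had a value. MOF and MSL2 are 2 of the 11 samples of the series, 1 ChIP-seq library each, and both were divided by the same *roX* mutant input. The comparison covered 86126 of the 163913 bins of 1 kb that make up the *D. melanogaster* sequence, namely those with at least 25 of 100 positions measured in both libraries. Other libraries of the series are an MSL1 ChIP from the same mutants, MOF and MSL2 ChIPs from wild type (Oregon R) glands with their own input, and *D. simulans* libraries that were not used here.

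Both libraries came from larvae of the third instar, raised at 25 C, with 125 glands per sample, and the males were picked as the non-GFP larvae of a balanced stock. Their X-chromosome carried the alleles roX1[ex6] and Df(1)roX2[52], so that both *roX* genes were mutated, together with the markers y and w and the transgene P[w+ 4Δ4.3], and they had a Y-chromosome. The Oregon R wild type carries none of these and is another strain. Salivary gland chromosomes are polytene, and heterochromatin is under-replicated in them. A ChIP track holds no expression marker of the tissue, so that label could not be checked.

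The MSL-complex binds the single X-chromosome of the male fly and raises its output. MSL2 is the male-specific subunit and, together with the scaffold protein MSL1, makes the contact with DNA, whereas MOF is the acetyltransferase that acetylates lysine 16 of histone H4. The *roX* RNAs are assembled with these proteins. MOF also works outside the MSL-complex, in the NSL complex at promoters on all chromosomes, and MSL2 and MSL1 have no part in that complex.

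All values are log2 ratios of ChIP over input, deposited every 10 bp. The input was shared, so a difference between the libraries within a bin, MOF minus MSL2, holds no input term provided the ratios were formed position by position. The overall scale of each library is not known, and differences are therefore given relative to the autosomal arms, which here means 2L, 2R, 3L and 3R without the 2 Mb nearest the centromere. With 1 library a side there is no replicate error and no test: the quartiles given are the spread among bins, which are not replicates. A difference in efficiency between the antibodies and a difference in occupancy cannot be told apart.

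Values were missing far more often on some chromosomes than on others. On the X-chromosome MOF had a value at 8.12% of the 10 bp positions, MSL2 at 13.2%, and both at 3.37%. On the autosomal arms with their centromere ends the shares were 67.6%, 65.9% and 55.1%, and on chromosome 4 they were 67.8%, 57.3% and 53.0%. On the heterochromatic scaffolds they were 10.9%, 7.54% and 6.91%. The X-chromosome results therefore rest on 906 bins and those of the heterochromatic scaffolds on 941 bins, against 77901 bins on the autosomal arms. On the X-chromosome the positions measured in both libraries had levels close to those measured in 1 of them, with a median MOF level of 0.24 at both kinds of position. On the arms with their centromere ends they did not: MOF was at 0.005 at shared positions and 0.117 at those measured for MOF alone, and MSL2 was at -0.001 at shared positions and 0.034 at those measured for MSL2 alone.

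MOF stood above MSL2 on chromosome 4, in the heterochromatic scaffolds and at most centromere ends, and the gap on the X-chromosome lay in a minority of bins. On the autosomal arms the median difference was -0.01 (quartiles -0.16 and 0.14), with medians of -0.01 for MOF and -0.01 for MSL2. On chromosome 4 the median MOF level was 0.00 and the median MSL2 level was -0.20, and the difference was 0.20 above the arms over 1024 bins. MOF was the higher of the pair in 81.9% of the chromosome 4 bins, against 48.5% of the bins on the arms. MSL2 on chromosome 4 was thus below its level on the arms, while MOF was near its own.

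The heterochromatic scaffolds had the widest gap of these groups. Their median was 0.57 for MOF and 0.22 for MSL2, and the difference was 0.36 above the arms (quartiles 0.18 and 0.54 before the arms were subtracted). Both proteins were above their level on the arms there, MOF by 0.58 and MSL2 by 0.23. By scaffold the median difference was 0.43 on 2LHet (43 bins), 0.31 on 2RHet (395 bins), 0.37 on 3LHet (335 bins), 0.43 on 3RHet (148 bins) and 0.18 on XHet (20 bins). The unplaced scaffold U had 0.29 over 68 bins. Uextra had -0.03 over 14 bins, and it was the only scaffold where both medians were near 3, at 2.97 for MOF and 3.00 for MSL2.

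**Figure D1:**
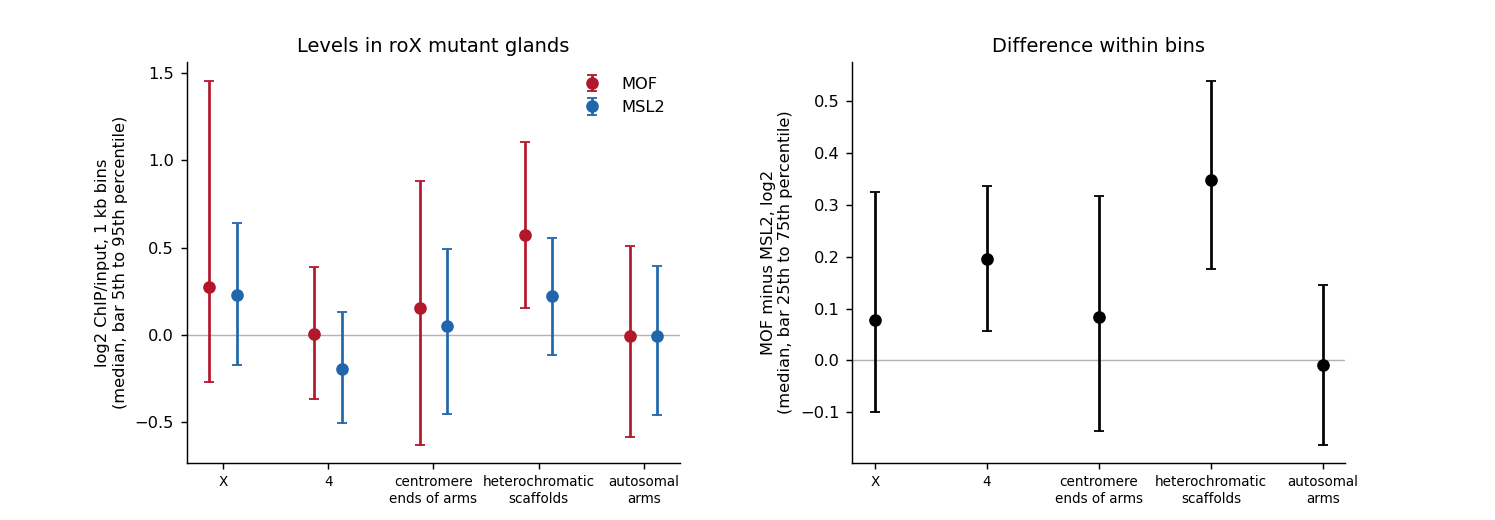
Left, log2 ChIP/input of MOF and MSL2 in 1 kb bins of *roX* mutant glands, as the median with a bar from the 5th to the 95th percentile of bins; right, the difference within bins with its quartiles. MOF lay above MSL2 on chromosome 4 and in the heterochromatic scaffolds, and on the X-chromosome the medians were close while the upper end reached 1.46 for MOF and 0.64 for MSL2.

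On the X-chromosome the medians were 0.27 for MOF and 0.22 for MSL2, both above the arms, and the difference was 0.09 above the arms (quartiles -0.10 and 0.32 before subtraction). The spread differed more than the middle: the SD over the X bins was 0.50 for MOF and 0.25 for MSL2. On the arms the SDs were 0.34 and 0.26, so the MOF library had the wider range there as well. When the libraries were scaled to the same SD on the arms, the X difference was 0.03 and that of the heterochromatic scaffolds 0.22, while that of chromosome 4 stayed at 0.20. The X value also depended on which bins were admitted, and was 0.01 with at least 10 shared values per bin, 0.02 with all values of each library and 0.38 with at least 50 shared values.

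A bin was counted as MOF-high where the difference was at least 0.5 above the arms and as MOF-low where it was at least 0.5 below. Over all bins 2.8% were MOF-high and 1.33% were MOF-low. MOF-high bins made up 16.2% of the X-chromosome (147 of 906), 10.3% of chromosome 4 (105 of 1024) and 29.4% of the heterochromatic scaffolds (277 of 941). The autosomal arms had 1.64% MOF-high and 1.33% MOF-low bins. There was no MOF-low bin on chromosome 4 or in the heterochromatic scaffolds, and 6 on the X-chromosome. The shares depended on the scale, since 1.11% of all bins were MOF-high and 0.365% were MOF-low after the SDs had been made equal.

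The MOF-high bins of the X-chromosome coincided with the regions bound by MSL1 in the same mutants. These were 309 regions, called from the highest 1.5% of smoothed MSL1 values; the MSL1 library shared the input but was not used in the difference. Inside them 344 X bins had a median of 0.76 for MOF and 0.36 for MSL2, with a difference of 0.43. Outside them 562 X bins had 0.12 for MOF and 0.15 for MSL2, with a difference of -0.03. Of the 147 MOF-high X bins, 145 were inside. MSL2 was thus raised at the X sites of MSL1 as MOF was, by a smaller amount on the log2 scale.

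On chromosome 4 both proteins were again higher inside the MSL1-bound regions than outside, with MSL2 starting from a lower level than on the X-chromosome. Inside the MSL1-bound regions 43 bins had a median of 0.77 for MOF and -0.04 for MSL2, and outside them 981 bins had 0.00 and -0.20. The difference was 0.77 inside and 0.19 outside, so MOF was above MSL2 in the rest of chromosome 4 as well. In the heterochromatic scaffolds 146 bins inside had 0.91 for MOF and 0.18 for MSL2, and 795 bins outside had 0.52 and 0.23. The MSL2 median was therefore no higher inside the MSL1-bound scaffold regions than outside, while the difference was 0.75 inside and 0.29 outside.

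The autosomal arms held 81 bins inside MSL1-bound regions, with a median of 0.45 for MOF and -0.02 for MSL2. At the centromere ends of the arms 28 such bins had 1.03 for MOF and 0.29 for MSL2. With equal SDs the gain inside over outside remained on the X-chromosome, at 0.31 in place of 0.46, and on chromosome 4, at 0.44 in place of 0.58.

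**Figure D2:**
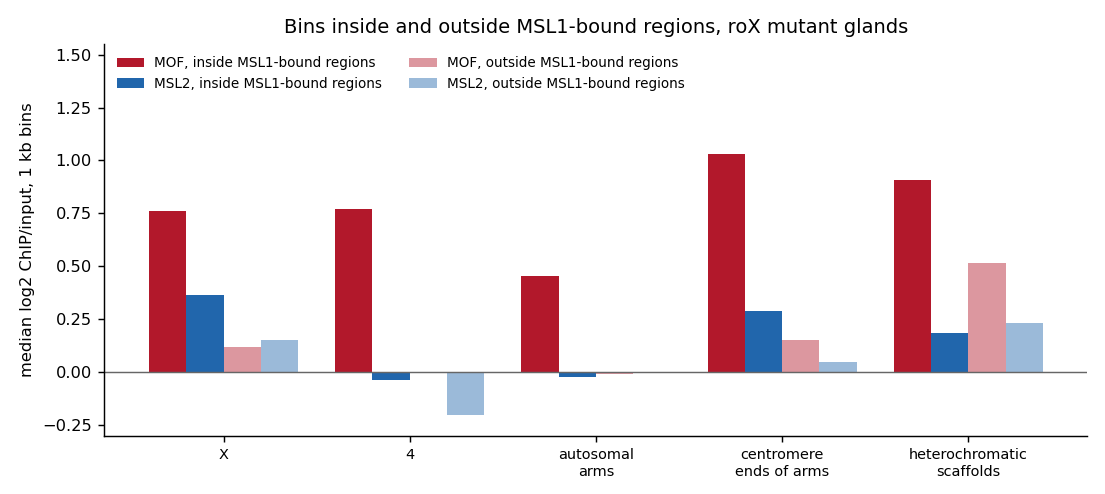
Median log2 ChIP/input of MOF and MSL2 in 1 kb bins inside (full colour) and outside (pale) the regions bound by MSL1 in the same *roX* mutants. Inside them MOF was at 0.76 on the X-chromosome and 0.77 on chromosome 4, whereas MSL2 was at 0.36 on the X-chromosome and -0.04 on chromosome 4.

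Distance from the centromere was read from the centromere-proximal end of each assembled arm. On 2L, 2R and 3L the difference was larger in the last 2 Mb than in the rest of the arm, by 0.16, 0.20 and 0.39, and on 3R it was smaller, at -0.16. The 3L end (907 bins) had a median of 0.52 for MOF and 0.18 for MSL2, and 31.6% of its bins were MOF-high with no MOF-low bin. The 2R end (1288 bins) had 0.42 and 0.19, and the 2L end (1287 bins) had 0.23 and 0.08. The 3R end (1790 bins) had medians below 0 for both proteins, with -0.31 for MOF and a difference of -0.18, and it held 4 MOF-high and 99 MOF-low bins. The X end had only 66 bins and its difference exceeded the rest of the X-chromosome by 0.05, which turned to -0.003 when the end was taken as 3 Mb.

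In steps of 250 kb the gap on 2L was 0.49 nearest the centromere, 0.45 at 500 to 750 kb, 0.20 at 750 to 1000 kb and 0.07 at 1750 to 2000 kb. On 2R it stayed between 0.27 and 0.35 out to 1500 kb, and was 0.08 in the next step and -0.08 in the one after. On 3L it lay between 0.37 and 0.55 out to 1500 kb, though the nearest step had 9 bins, and was 0.21 and then 0.05 in the next steps. These 3 arms therefore shared a high stretch, broken off before 2 Mb.

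MOF itself changed most along these steps. On 3L it was at 0.89 at 750 to 1000 kb and at 0.22 at 1750 to 2000 kb, while MSL2 was at 0.32 and 0.15 in the same steps. On 2L it was at 0.70 in the nearest step and at -0.06 at 1750 to 2000 kb, and MSL2 was at 0.23 and -0.11. On 3R the steps ran between -0.04 and -0.30 within 2 Mb, the lowest at 1250 to 1500 kb, where MOF was at -0.52 and MSL2 at -0.24. Farther out on 3R the difference was 0.29 at 2500 to 2750 kb, with MOF at 0.55 and MSL2 at 0.25.

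**Figure D3:**
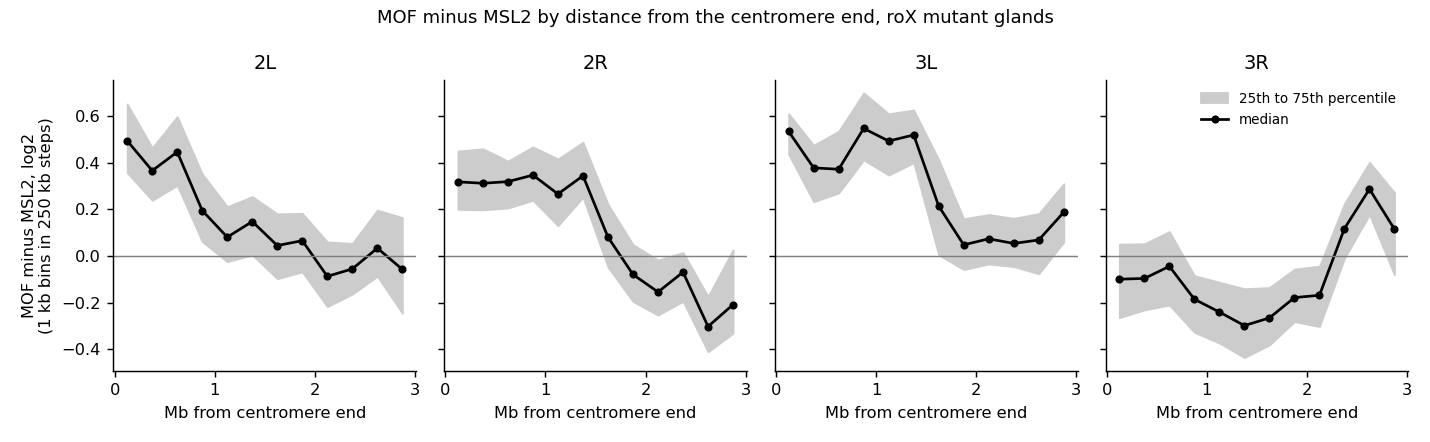
Median MOF minus MSL2 (log2, line) with quartiles of the bins (grey) in 250 kb steps from the centromere end of each arm, out to 3 Mb. On 2L, 2R and 3L the steps nearest the centromere had medians of 0.49, 0.32 and 0.53, whereas on 3R all steps within 2 Mb were below 0.

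The opposite ends of the arms did not share a direction. In the last 250 kb at the end away from the centromere, the difference was 0.36 on 2R (221 bins, MOF 0.30 and MSL2 -0.09), -0.25 on 2L (224 bins), -0.08 on 3L (190 bins) and -0.01 on 3R (223 bins). On 2R this was as large as the median of the heterochromatic scaffolds. The X-chromosome had 12 bins there, with a difference of 0.08.

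Along the arms the difference formed long stretches. Of 925 windows of 100 kb with at least 50 bins, the 50 highest had medians from 0.27 to 0.55, and 27 of them were on the autosomal arms, 17 at centromere ends, 3 on chromosome 4 and 3 in heterochromatic scaffolds. All windows numbered 854, 55, 12 and 4 in these groups. The highest were chr3L:23700001-23800000 with 0.55, chr3L:23200001-23300000 with 0.54 and chr3L:23300001-23400000 with 0.54 (56, 78 and 53 bins), all within 1.3 Mb of the centromere end. Next were the adjoining windows chr2R:14900001-15000000 with 0.51 (97 bins) and chr2R:14800001-14900000 with 0.50 (95 bins), far from either end of the arm.

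The 2R stretch differed from the MSL1-bound regions. MOF was at 0.66 and 0.62 in its windows, MSL2 at 0.18 and 0.11, and MSL1 at 0.26 and 0.18. Among the runs of 5 or more adjoining MOF-high bins, chr2R:15007001-15015000 had 8 bins with MOF at 0.70, MSL2 at 0.09 and MSL1 at 0.05. The run chr3R:9790001-9798000 had 8 bins with MOF at 1.21, MSL2 at 0.16 and MSL1 at 2.82. On the arms, MOF far above MSL2 was thus found both where MSL1 was high and where it was low. MSL2 was above its arm median of -0.005 in each of the windows and runs just named. The other MOF-high runs within the 2R windows went both ways. MSL2 was at -0.05 in chr2R:14805001-14810000, -0.09 in chr2R:14872001-14877000 and -0.03 in chr2R:14910001-14915000. It was at 0.08 in chr2R:14824001-14830000 and 0.07 in chr2R:14933001-14939000.

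Runs of 5 or more MOF-high bins numbered 16 in the heterochromatic scaffolds, 12 at the centromere ends, 10 on the arms, 7 on the X-chromosome, 5 on chromosome 4 and 1 on unplaced scaffolds. The longest had 12 bins, and there were 4 of them. In chr3RHet:1934001-1946000 MOF was at 1.03 and MSL2 at 0.14, in chr4:134001-146000 at 0.67 and -0.02, in chr4:1223001-1235000 at 1.84 and 0.16, and in chrX:16846001-16858000 at 1.60 and 0.55. MSL1 was between 2.20 and 3.72 in these runs. The MSL2 median over all bins was 0.22 on the X-chromosome, -0.20 on chromosome 4 and 0.155 on 3RHet. MSL2 was thus above the median of its own chromosome in the X run and in both chromosome 4 runs. In the 3RHet run it was near the median of that scaffold.

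The lowest windows were chr3R:1400001-1500000 with -0.36 (88 bins), chr2L:8000001-8100000 with -0.36 (74 bins), chr2R:2600001-2700000 with -0.33 (89 bins), chr3R:1300001-1400000 with -0.32 (92 bins) and chr3L:8300001-8400000 with -0.32 (82 bins). Both proteins were below 0 in all of them, MOF between -0.35 and -0.62 and MSL2 between -0.02 and -0.26. Only 1 run of 5 or more MOF-low bins was found, on the arms, with 6 bins. The difference in a bin of the arms had a correlation of 0.48 with that in the adjoining bin (73503 pairs), 0.27 with that of the bin at 100 kb (69571 pairs) and 0.10 at 1000 kb (65441 pairs), where adjoining bins share sequenced fragments.

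The bins of the arms were also ranked by their difference and divided into quintiles of equal size. In the quintile with the lowest difference (median -0.30) MOF was at -0.34 and MSL2 at -0.01, and in the one with the highest (median 0.28) MOF was at 0.29 and MSL2 at -0.02. In libraries outside the difference, MSL1 of the mutants was at -0.18 in the lowest and 0.06 in the highest quintile, wild type MOF was at -0.01 and 0.25, and wild type MSL2 was at 0.20 in both. The mutant MOF and MSL2 levels are part of the ranking itself, and only the levels of the other libraries are separate from it.

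Bound regions were called in each library as the study defined them: the 500 bp smoothed values in the highest 1.5% were joined over gaps of up to 200 bp, and regions of at least 200 bp with 5 or more units were kept. The cutoff was 0.81 for MOF and 0.60 for MSL2. MOF had 1679 regions and MSL2 had 2586. This rule returns regions in a library of any strength. The median region value was 0.68 for MSL2 and 0.92 for MOF, against 2.11 for MSL1 of the same mutants. The study took MSL1 to represent the *roX* mutants, as the most distinct of their libraries. A region of MSL2 or MOF may therefore be only the upper end of a weaker library. Since each library's own highest values were taken, the covered length was alike by construction. Of the windows smoothed in both libraries, 1.36% were in an MOF region and 1.37% in an MSL2 region.

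Most regions of either protein had no region of the other over them. Of the MOF regions 384 (22.9%) overlapped an MSL2 region and 1295 did not (MOF-only regions), and of the MSL2 regions 416 (16.1%) overlapped an MOF region and 2170 did not (MSL2-only regions). In 1158 of the 1295 MOF-only regions MSL2 was measured, with a median of 0.33, above 0 but below the cutoff. In 1952 of the 2170 MSL2-only regions MOF was measured, with a median of 0.42. Where measured, the other protein was above 0 in 1121 of the 1158 and in 1903 of the 1952. Its place below the cutoff follows largely from the definition. On the arms the medians exceeded those of all windows, with MSL2 at 0.34 against 0.003 and MOF at 0.417 against 0.013. In the heterochromatic scaffolds they were closer, with MSL2 at 0.285 against 0.226 and MOF at 0.614 against 0.56. Unlike the difference, these levels hold the shared input. When a region within 5 kb was taken as a match, 59.7% of MOF regions and 30.5% of MSL2 regions had one.

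The groups of chromosomes differed in which protein lacked its partner. On the X-chromosome 37 of 90 MOF regions and 58 of 235 MSL2 regions overlapped, and 127 of the 177 MSL2-only regions there had no smoothed MOF value. Of the X windows measured in both, 19.2% were in an MOF region and 9.47% in an MSL2 region. Of the MSL2-bound windows 69.8% were also MOF-bound, and of the MOF-bound windows 34.4% were also MSL2-bound. Where both were measured, the MSL2 calls of the X-chromosome thus lay mainly within the MOF calls.

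On the autosomal arms 169 of 770 MOF regions and 170 of 1980 MSL2 regions overlapped. Arm 3L had 493 MSL2 regions outside its centromere end, of which 12 had an MOF region, and 41 MOF regions. At the 3R centromere end MSL2 had 30 regions and MOF had 1, of 290 bp. At the 3L centromere end the counts were 236 for MOF and 80 for MSL2, and 57 of those 80 had an MOF region. In the heterochromatic scaffolds 41 of 231 MOF regions and 45 of 79 MSL2 regions overlapped.

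MOF-only regions of the X-chromosome and of chromosome 4 were for the most part also regions of MSL1. Among the MOF-only regions with a smoothed MSL1 value, 44 of 47 on the X-chromosome, 8 of 9 on chromosome 4, 8 of 401 on the arms, 15 of 387 at the centromere ends and 54 of 161 in the heterochromatic scaffolds overlapped an MSL1-bound region. Among the MSL2-only regions with such a value it was 19 of 51 on the X-chromosome, 0 of 4 on chromosome 4, 0 of 1016 on the arms, 0 of 102 at the centromere ends and 1 of 25 in the heterochromatic scaffolds. The MSL1 value was missing in many regions, among them most of the 177 MSL2-only regions of the X-chromosome. As a rough background, 344 of the 906 X bins and 43 of the 1024 bins of chromosome 4 were inside MSL1-bound regions. So were 81 of the 77901 arm bins, 28 of the 5272 bins at the centromere ends and 146 of the 941 scaffold bins. The 19 of 51 was near the share of X bins. Bins and regions are unlike units, however, and the bins did not need an MSL1 value, so the shares cannot be compared closely. All 37 MOF regions of the X-chromosome that had an MSL2 region also had an MSL1 region.

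Levels of MSL1 followed the same order on the X-chromosome and chromosome 4. The median over MOF-only regions was 2.61 on the X-chromosome (47 of 53 with a value) and 2.38 on chromosome 4 (9 of 9), whereas over all smoothed windows it was 0.74 and 0.04. Over MSL2-only regions it was 1.10 on the X-chromosome (51 of 177 with a value) and 0.13 on chromosome 4 (4 of 5). On the arms it was 0.39 at MOF-only regions and 0.35 at MSL2-only regions, and -0.04 over all windows. These MSL1 levels also hold the input shared with the MOF and MSL2 libraries that called the regions. By these values the MSL1 level did not separate the lists on the arms. In the heterochromatic scaffolds it was 0.91 at MOF-only regions, 0.82 at MSL2-only regions and 0.80 over all windows, so the lists were close there too. At the centromere ends it was 0.65, 0.505 and 0.20 in the same order.

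The 10 MOF regions of chromosome 4 lay in a few clusters, and 9 of them had no MSL2 region. The strongest, chr4:1223070-1234350, spanned 11290 bp with a value of 2.27, taken as the mean of its 5 highest consecutive smoothed values. The mean MOF level over it was 1.73, that of MSL2 was 0.23 and that of MSL1 was 3.64. All 3 MSL2 regions of chromosome 4 with an MOF region lay within it. They were chr4:1225630-1225850, chr4:1226320-1226990 and chr4:1228400-1228810, where MOF was at 1.95, 2.12 and 2.12 and MSL2 at 0.62, 0.72 and 0.66.

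A second cluster of MOF regions held chr4:329500-331900 and chr4:332190-334060. MOF was at 1.14 and 1.04 there and MSL2 at -0.08 and 0.15, with MSL1 at 2.85 and 2.88. Close by, chr4:350010-350910 and chr4:351230-352050 had MOF at 0.89 and 0.92 and MSL2 at -0.33 and -0.12. MSL2 was thus at or below its arm median in 3 of these 4 regions although MSL1 was above 2 in all of them. The chromosome 4 median of MSL2 outside MSL1-bound regions was -0.20, and only chr4:350010-350910 was below that.

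The remaining chromosome 4 regions of MOF were lower. The regions chr4:137200-137670, chr4:138450-138980, chr4:139810-140290 and chr4:142550-144040 had MOF between 0.83 and 0.97, MSL2 between 0.01 and 0.21, and MSL1 between 2.14 and 2.48. The region chr4:1257180-1257520 had MOF at 0.91, MSL2 at 0.33 and MSL1 at 1.49, and it was the only chromosome 4 region of MOF without an MSL1 region.

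The 5 MSL2-only regions of chromosome 4 were short, from 270 to 510 bp. In chr4:396820-397080 and chr4:611840-612140 MOF was at 0.11 and 0.07 and MSL2 at 0.69 and 0.64. In chr4:738230-738670 and chr4:1127320-1127620 MOF was at 0.30 and 0.55 and MSL2 at 0.62 and 0.65. In chr4:724800-725300 the proteins were level, with 0.70 for MOF and 0.74 for MSL2. MSL1, where measured, was between -0.18 and 0.64 in these regions.

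**Figure D4:**
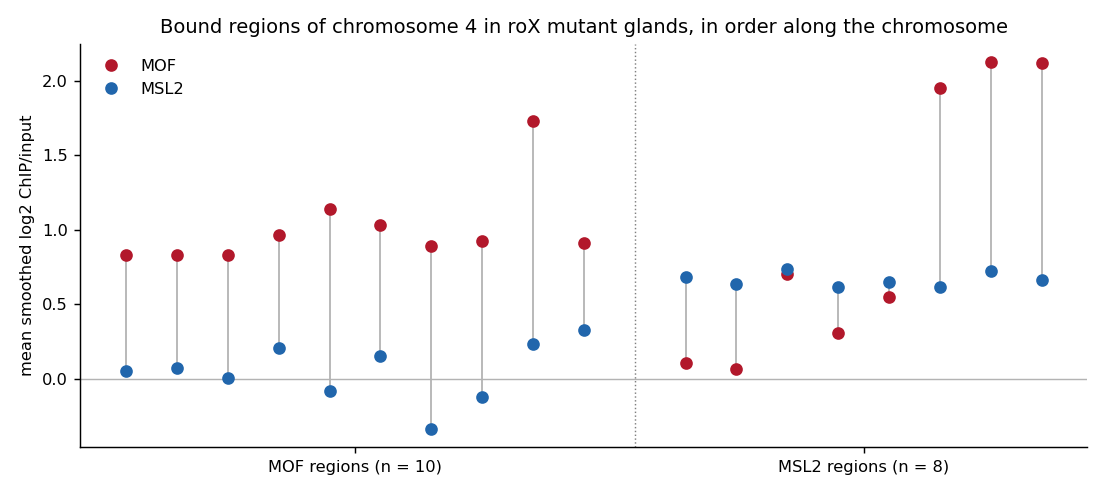
Mean smoothed log2 ChIP/input of MOF and MSL2 over each of the 10 MOF regions (left) and 8 MSL2 regions (right) of chromosome 4, in order along the chromosome within each list; a grey line joins the pair of values of a region. MOF was above MSL2 in all MOF regions, which the selection largely sets, since they were called by high MOF and 9 had no MSL2 region. The 3 MSL2 regions with MOF at 1.95 to 2.12 lie inside the strongest MOF region.

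In steps of 100 kb the difference on chromosome 4 was above 0 throughout, from 0.04 at 0 to 100 kb (29 bins) to 0.40 at 1200 to 1300 kb (63 bins). It was 0.31 at 300 to 400 kb and 0.25 at 100 to 200 kb, the steps with the other clusters of MOF regions. From 800 to 1200 kb, where MOF had no region, it lay between 0.26 and 0.27. Leaving out the positions inside bound regions of either protein gave 0.20 for chromosome 4 relative to the arms. Bins that touched a region stayed in if at least 25 shared values remained.

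On the X-chromosome the 5 strongest MOF regions without an MSL2 region had values from 1.34 to 1.94. The first was chrX:15693410-15696950, with MOF at 1.48, MSL2 at 0.27 and MSL1 at 3.44. The others were chrX:7213880-7217320, chrX:691450-694180, chrX:4969830-4971290 and chrX:12652280-12653710, where MSL2 was between 0.33 and 0.43 and MSL1 between 2.94 and 3.32. MSL2 was above its arm level in all 5. In the X region with both proteins and the highest value, chrX:14944080-14947760, MOF was at 1.62 and MSL2 at 0.68, with MSL1 at 3.73.

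The 5 strongest MSL2 regions of the X-chromosome without an MOF region had values from 0.87 to 0.94. In chrX:19918470-19919030, chrX:12609810-12610330 and chrX:15624890-15625310 MOF was at 0.78, 0.65 and 0.73 and MSL2 at 0.82, 0.80 and 0.80, so MOF was below MSL2 and below its own cutoff of 0.81 in each. In chrX:6173110-6173560 MOF was at 0.06 and MSL2 at 0.85. MOF had no smoothed value in chrX:4400660-4400950.

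On the arms, the strongest MOF regions without an MSL2 region were chr3R:9790590-9796410 and chr3R:9858630-9860920. MOF was at 1.24 and 1.23 there, MSL2 at 0.22 and 0.01, and MSL1 at 2.90 and 3.07. The next that were measured in both, chr2R:14952520-14953150 and chr3R:6483810-6484290, had MOF at 1.18 and 1.16 and MSL2 at 0.35 and 0.42. MSL1 was at 0.10 in the 2R region and had no value in the 3R one. In chr3R:12537460-12537850, with MOF at 1.34, MSL2 had no smoothed value.

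The strongest MSL2 regions of the arms without MOF had MSL2 between 0.96 and 1.06, and MOF was above 0 in all of them. In chr3L:20275840-20276280 MOF was at 0.24 and MSL2 at 1.06. In chr3R:24200020-24200650 MOF was at 0.36, and in chr3R:18048940-18049610, chr3L:9976210-9976700 and chr3R:2772670-2773200 it was at 0.58, 0.58 and 0.73.

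At the centromere ends the strongest MOF-only region was chr2L:22817470-22822020, with MOF at 1.25, MSL2 at 0.39 and MSL1 at 2.40. The next were chr3L:23639030-23639930, chr3L:23641160-23643490, chr2R:767860-768780 and chr3L:24031430-24032890, with MOF between 1.05 and 1.15, MSL2 between 0.08 and 0.48, and MSL1 between 0.45 and 0.93. MSL1 was thus under its own cutoff of 1.63 in 4 of the 5. The strongest MSL2-only region there was chr2R:225370-225940, with MOF at 0.39 and MSL2 at 1.10. In chr3R:1799740-1800320, chr3R:1699460-1700380 and chr3R:1803130-1803650 MOF was between 0.09 and 0.34 and MSL2 between 0.78 and 0.86, and in chr3L:24075300-24075950 MOF was at 0.66 and MSL2 at 0.82.

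In the heterochromatic scaffolds the strongest MOF-only regions were chr2RHet:1596960-1600230, chr3RHet:1820070-1824130, chr3RHet:1685420-1686910, chr3RHet:1935350-1938960 and chr3RHet:1896540-1898840. MOF was between 1.12 and 1.40 in them, MSL2 between 0.05 and 0.38, and MSL1 between 2.54 and 3.08. All 5 were above the MSL1 cutoff. The strongest MSL2-only regions, chr3LHet:1362240-1362450, chr2RHet:449420-449760, chr2RHet:410090-410510, chr3LHet:719530-719840 and chr3LHet:1224510-1224770, had MOF between 0.43 and 0.75 and MSL2 between 0.80 and 0.89, with an MOF region within 2360 bp of each. On XHet, chrXHet:76570-81610 was the strongest scaffold region apart from the unplaced ones, with MOF at 1.71, MSL2 at 0.52 and MSL1 at 3.54, and both MSL2 regions of XHet lay within it.

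The same subtraction in wild type glands, which have their own input, gave values for 75362 bins. Relative to the arms of each genotype, the difference on the X-chromosome was 0.09 in *roX* mutants and 0.50 in wild type. Over the 716 X bins with values in both genotypes it was 0.16 in the mutants and 1.10 in wild type. On chromosome 4 it was 0.20 in the mutants and -0.48 in wild type, and in the heterochromatic scaffolds it was 0.36 and -0.09. The X value of the mutants was small and depended on the bins admitted, whereas the values of chromosome 4 and of the scaffolds had opposite signs in the genotypes, a difference that was not tested. Over the bins with values in both genotypes chromosome 4 was at 0.19 in the mutants and -0.48 in wild type, and the scaffolds were at 0.47 and -0.11.

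At the centromere ends the mutant and the wild type values were 0.18 and -0.34 on 2L, 0.24 and -0.10 on 2R, 0.35 and 0.32 on 3L, and -0.17 and -0.39 on 3R. The gap at the 3L end and the inverse gap at the 3R end were therefore seen in both genotypes. Over bins measured in both, the differences of the genotypes had a correlation of 0.47 on the X-chromosome (716 bins), 0.46 at the centromere ends (3079 bins), 0.24 on the arms (63959 bins), 0.16 in the heterochromatic scaffolds (258 bins) and -0.09 on chromosome 4 (512 bins). These pairs share the antibodies and the mappability of the reference.

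At the strongest chromosome 4 region, chr4:1223070-1234350, the means in wild type glands were -0.87 for MOF and 0.15 for MSL2, against 1.73 and 0.23 in the mutants. At chr3R:9858630-9860920 they were -0.49 and -0.18 in wild type, against 1.23 and 0.01 in the mutants. In the windows chr2R:14900001-15000000 and chr3L:23200001-23300000 wild type MOF was at 0.40 and 0.63. These 2R and 3L windows, where MSL1 in the mutants was below its cutoff, thus had MOF above its wild type arm median of 0.14 as well.

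**Figure D5:**
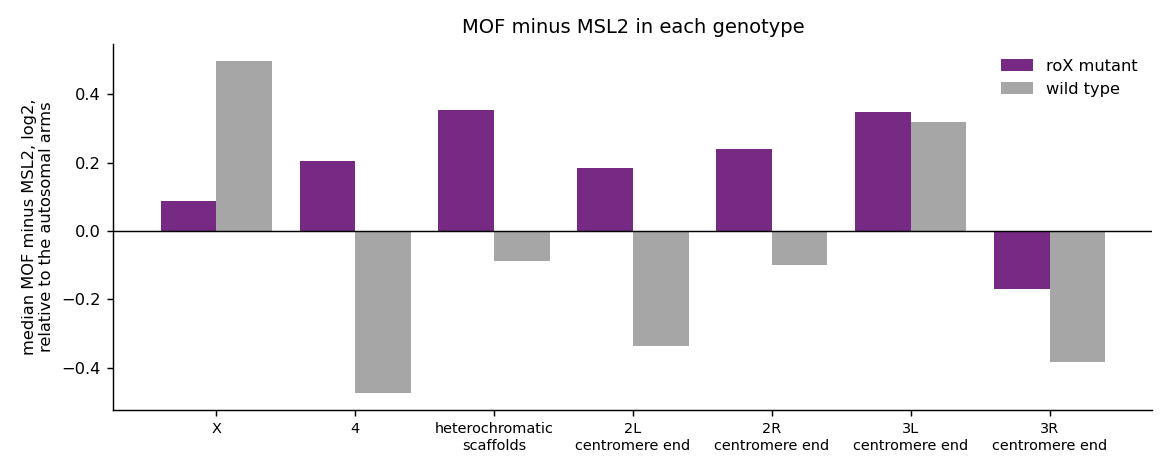
Median MOF minus MSL2 (log2, 1 kb bins) relative to the autosomal arms of the same genotype, in *roX* mutant (left bar) and wild type (right bar) glands, 1 library of each protein per genotype. The bars have opposite signs on chromosome 4, in the heterochromatic scaffolds and at the 2L and 2R centromere ends, and the same sign on the X-chromosome (where the mutant value is 0.09 and depends on the bins admitted) and at the 3L and 3R ends.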

How the data were processed

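ChIP-seq libraries of MOF and MSL2 from *roX* mutant glands (1 each) were compared, with the *roX* mutant MSL1 and the wild type MOF and MSL2 libraries as further levels. Per the methods of the study, the authors aligned uniquely mapping reads with Bioscope to the fly genome (release 5) and formed ratios of ChIP over input. The deposited values are log2 enrichment ratios at 10 bp spacing; how they were scaled is not given in the sources used here, and read depth is unknown, so no counting error could be given. In the sources used here no rule is given for positions without a value.

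From these values 1 kb bin means over positions with a value in both libraries (at least 25) were computed in Python 3.11.15 with numpy 2.4.6 and pandas 2.3.3. Bound regions were called separately in each library. Procedures were tested on simulated data, in which the planted regions were far stronger than most regions called here. The recovery of weak regions and of their overlap was therefore not tested. No test across samples was possible with 1 library a side. Named regions are all bound regions of chromosome 4, and elsewhere the 5 highest by region value of each list without the other protein in each group of chromosomes; named windows are the 5 highest and 5 lowest. The groups, thresholds and lists were chosen with earlier results of these data known. The split by MSL1-bound regions, the runs of bins named and the region with both proteins on the X-chromosome and on XHet were chosen after their values had been seen. Coordinates are release 5; regions were not tied to genes or sequences, since no release 5 annotation or genome was used here.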

Additional observations from a re-analysis of the deposited data

Results flagged for a closer look

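The median difference of MOF minus MSL2, relative to the autosomal arms, had opposite signs in the genotypes in 5 parts of the genome. It was 0.204 in *roX* mutants and -0.475 in wild type on chromosome 4, 0.092 and -0.189 at the pooled centromere ends of the arms, and 0.355 and -0.089 in the heterochromatic scaffolds. At single centromere ends it was 0.184 in the mutants and -0.338 in wild type on 2L, and 0.24 and -0.099 on 2R. Over the bins with values in both genotypes the pooled centromere ends were at 0.023 in the mutants and -0.19 in wild type, so that the mutant value was near 0 there. With 1 library of each protein per genotype these differences were not tested. The genotypes also differ in strain, input and the share of positions with a value.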

How the results depend on the processing

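No paired analysis was possible because each group has 1 library, and for the same reason no replicate could be left out. Of 134 values computed under alternatives for 21 results, 90 stayed within 0.1 on the log2 scale, within the binomial interval of a share or within 1.5 times a count, 42 moved further and 2 changed sign. X relative to the arms, 0.0867 as reported, was 0.195 with 2 kb bins and 0.375 with at least 50 shared values, and was 0.00941 with at least 10 shared values, 0.0209 with all values of each library, 0.0292 outside bound regions, 0.0298 with equal SDs and 0.0448 with 500 bp bins. The heterochromatic scaffolds were at 0.22 with equal SDs and at 0.466 in bins with values in both genotypes, where the centromere ends were at 0.0226 in place of 0.0922. The X centromere end minus the rest of the X-chromosome was -0.00321 with a 3 Mb end, -0.00783 outside bound regions and 0.32 with at least 50 shared values, against 0.0508 as reported. With a 1 Mb end 2L was at 0.325 and 3L at 0.516, and with a 3 Mb end 2L was at 0.0675, 2R at 0.0426 and 3L at 0.232. On 3R it was -0.0869 with a 1 Mb and -0.0855 with a 3 Mb end, and -0.0974 with equal SDs. With equal SDs 2R was at 0.0948 and 3L at 0.248, and outside bound regions 3L was at 0.288. Inside minus outside MSL1-bound regions was 0.314 on X and 0.441 on chromosome 4 with equal SDs. The cause was not tested.

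Overlap depended on how regions were called. The MOF regions with an MSL2 region made up 29.6% with the highest 3 percent called, 36.3% with 5 percent, 25.7% with windows smoothed in both libraries, 29.3% with 2000 bp smoothing, 13.3% when 50% of a region had to be covered and 59.7% within 5 kb. The MSL2 regions with an MOF region made up 14.4% with 1 percent, 21.2% with 3 percent, 26.7% with 5 percent, 18.9% with windows smoothed in both, 17.8% with a cutoff set without scaffolds, 13.4% under the 50% rule and 30.5% within 5 kb. MOF regions without an MSL2 region numbered 855, 2324 and 3344 with 1, 3 and 5 percent, 439 with 2000 bp smoothing and 677 within 5 kb. MSL2 regions without an MOF region numbered 3854 and 5602 with 3 and 5 percent and 942 with 2000 bp smoothing. MOF-high bins made up 16% at a threshold of 0.25, 0.125% at 1 and 1.11% with equal SDs, and MOF-low bins 13.2%, 0% and 0.365%. Median MSL1 at MSL2-only regions of X was 0.836 from deposited in place of smoothed values. The split by MSL1-bound regions and the use of bins measured in both genotypes were chosen after seeing the data. Depth is unknown, and missing values limit the X-chromosome most.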
